A study of Homo sapiens with 4 samples.

Results

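The 6 genes described here encode carriers of blood group antigens, channels and skeleton proteins of the red cell membrane, namely *SLC4A1*, *EPB42*, *RHD*, *AQP1*, *SMIM1* and *DMTN*. They are 6 of the 143 genes in the authors' deposited table of K562 cells treated with TRIAC or with DMSO. They were chosen by their function together with measured values, since the table lists genes that the authors' comparison picked and all 6 were already known to be higher with TRIAC. Their direction is therefore a description, and no test was made on it. K562 is an established human erythroleukemia cell line, and TRIAC is a thyroid hormone metabolite that binds thyroid hormone receptors. Cells of both groups received 10 µM hemin, which drives erythroid differentiation of this line. One group of 2 libraries was incubated with 20 µM TRIAC and the other group of 2 libraries with DMSO, the solvent, for 48 h. Libraries of cells without hemin were not analysed here, and no source used here says if both libraries of a treatment were grown as separate cultures.

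The red cell membrane is a lipid bilayer fixed to a net of spectrin and short actin filaments. Band 3, the anion exchanger, makes a main part of this link through ankyrin and protein 4.2 and sits in a complex with the Rh proteins, while a second set of proteins, dematin among them, joins the net at the actin junctions. Most of these proteins are made late in erythroid differentiation, when the cell fills with hemoglobin. Many of them also carry blood group antigens on the outside of the cell.

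The sequence before each transcript start is shown because the 6 genes were listed together as higher and such stretches can hold sites of erythroid factors. RefSeq promoter windows of GRCh38.p14 were searched for 4 of the 6 genes, *EPB42*, *RHD*, *AQP1* and *SMIM1*. No window of *SLC4A1* or *DMTN* was kept for the search, so their upstream sequence was not examined. Their absence here does not mean that no such window exists. The 250 bases before the start are given 5′ to 3′ on the strand of the gene, at chr15:43221019-43221268 (minus strand) for *EPB42*, chr1:25272259-25272508 (plus strand) for *RHD*, chr7:30911603-30911852 (plus strand) for *AQP1* and chr1:3772499-3772748 (plus strand) for *SMIM1*. Capitals mark matches on either strand to AGATAA, a form of the GATA motif, or to CCNCNCCC, a form of the KLF motif.
EPB42: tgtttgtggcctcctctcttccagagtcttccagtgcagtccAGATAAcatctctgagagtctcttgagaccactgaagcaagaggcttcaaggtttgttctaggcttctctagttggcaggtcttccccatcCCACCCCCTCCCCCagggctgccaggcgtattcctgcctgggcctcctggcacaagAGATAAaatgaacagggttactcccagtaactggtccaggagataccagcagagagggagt
RHD: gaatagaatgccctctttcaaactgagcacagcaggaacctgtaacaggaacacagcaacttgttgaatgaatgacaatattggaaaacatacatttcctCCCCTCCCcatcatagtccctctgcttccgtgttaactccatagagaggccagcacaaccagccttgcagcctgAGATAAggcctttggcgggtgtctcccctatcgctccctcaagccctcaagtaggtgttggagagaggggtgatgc
AQP1: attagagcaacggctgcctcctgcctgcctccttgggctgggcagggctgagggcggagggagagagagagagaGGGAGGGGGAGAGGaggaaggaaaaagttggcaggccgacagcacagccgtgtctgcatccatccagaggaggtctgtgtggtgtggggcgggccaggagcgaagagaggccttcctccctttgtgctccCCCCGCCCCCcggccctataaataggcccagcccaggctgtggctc
SMIM1: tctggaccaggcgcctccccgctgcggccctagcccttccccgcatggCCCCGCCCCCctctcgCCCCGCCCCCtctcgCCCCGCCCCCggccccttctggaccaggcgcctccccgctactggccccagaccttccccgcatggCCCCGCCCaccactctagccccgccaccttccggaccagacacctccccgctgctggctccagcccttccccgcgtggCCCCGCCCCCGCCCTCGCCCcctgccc

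AGATAA was found in 2 of the 4 windows, with 2 matches in *EPB42* and 1 match in *RHD*, and in 9.17% of all 35116 RefSeq windows. CCNCNCCC was found in all 4 windows, with 3 matches in *EPB42*, 1 in *RHD*, 4 in *AQP1* and 11 in *SMIM1*, and in 53.4% of all windows. Neighbouring matches to CCNCNCCC overlap each other, since runs of C hold the motif at several offsets. The window of *SMIM1* consists to 78.8% of G and C, that of *AQP1* to 65.2%, that of *EPB42* to 54.0% and that of *RHD* to 50.4%, against a median of 58.0% over all windows. Neither TGATAA, the other GATA form searched (6.66% of all windows), nor AGGTCA, the half-site bound by many nuclear receptors (12.1%), was found in the 4 windows. The direct repeat of AGGTCA with 4 bases between the copies, the classic thyroid hormone response element, was not found there either and occurs in 0.0142% of all windows. A match is a string of letters and not a bound site, and the absence of one says nothing of sites outside these 250 bases.

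**Figure D1:**
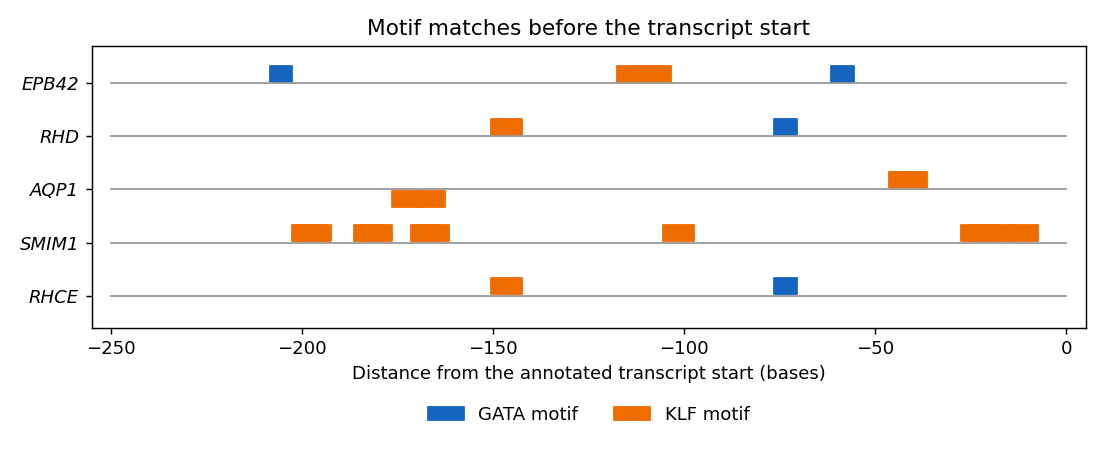
Matches to AGATAA (blue) and CCNCNCCC (orange) in the 250 bases before the transcript start (horizontal axis, distance in bases) of 4 genes and of *RHCE*, the neighbour of *RHD*; boxes above a line lie on the strand of the gene and boxes below it on the other strand. AGATAA appears in *EPB42*, *RHD* and *RHCE*, and CCNCNCCC in all 5 windows.

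For each gene the authors' deposited table gives 1 expression value per group, in a unit that no source used here names. Every value below is such a group value, with no error, and the depth of the libraries is unknown. Values were treated as not yet divided by length, which is an assumption. The only hint is 1 low DMSO value shared by *AHSP* and *C17orf99*, which differ in listed length, and this cannot settle the unit. Levels are set side by side between genes mainly after division by the listed length (per kb). Values not given per kb are as listed. Were these already divided by length, the levels per kb would be divided by it again. Of the 143 genes, 61 had a higher and 82 a lower value with TRIAC, and 140 had a value above 0 in both groups. All 6 genes were at least 4 times higher with TRIAC, as were 39.3% of the 140 genes. At 8 times or more there were 3 of the 6, *SLC4A1*, *RHD* and *EPB42*, against 19.3% of the 140 genes. Because the genes were taken from the higher side of the table, nothing is read from these counts. The median log2 ratio of TRIAC to DMSO was 3.21 over the 6 genes (range 2.04 to 3.79) and 2.89 over the 60 higher genes with a value above 0 in both groups. Since RNA of whole cultures was measured, a larger share of cells that express these genes and more RNA per cell cannot be told apart.

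**Figure D2:**
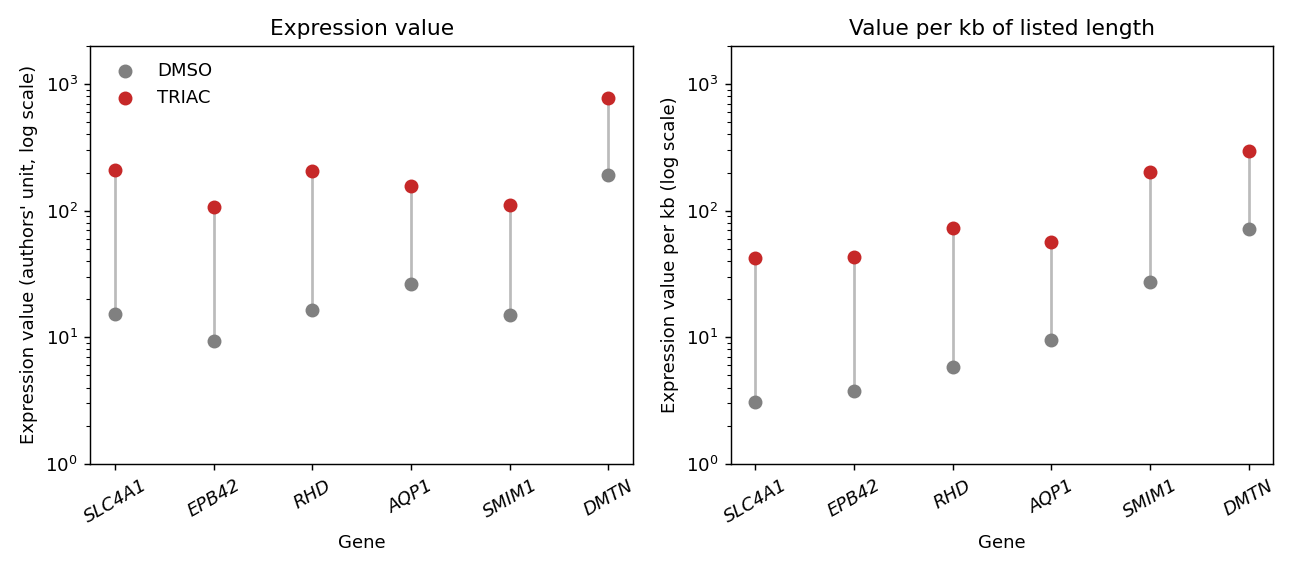
Expression values of the 6 genes in the authors' unit (left, log scale) and divided by the listed length in kb (right, log scale) with DMSO (gray) and with TRIAC (red), with a single value for each treatment and no error. Every red point lies above the gray point of its gene, and per kb *DMTN* is highest and *SLC4A1* lowest in both groups.

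*SLC4A1* encodes band 3, which exchanges chloride for bicarbonate and anchors the membrane skeleton. Its expression value was 15.2 in DMSO-treated cells and 210 in TRIAC-treated cells, which is 13.8 times higher (log2 ratio 3.79). This was the largest ratio of the 6 genes and ranked 13 among the 140 genes. *EPB42* encodes protein 4.2, which binds band 3 on the inner face of the membrane. It had the lowest control value of the 6 genes, 9.31, and a value of 107 with TRIAC, 11.5 times higher (log2 ratio 3.52). The values of this pair differed by less per length than they did as listed. Divided by the listed length, *SLC4A1* went from 3.07 to 42.4 per kb and *EPB42* from 3.76 to 43.3 per kb. The level of *EPB42* per kb was thus 1.23 times that of *SLC4A1* in control cells and 1.02 times in TRIAC-treated cells. *SLC4A1* (chromosome 17, 44248390 to 44268141, minus strand, GENCODE 44) has 20 exons in its canonical transcript and encodes 911 residues. *EPB42* (chromosome 15, 43197227 to 43221018, minus strand) has 13 exons and encodes 691 residues. In GENCODE 44 a gene on the same strand, ENSG00000285117, overlaps *EPB42* and holds 17.3% of the 50-base windows of its canonical transcript. Whether the authors' annotation holds that gene is not known here. If it does, some reads of *EPB42* could have been assigned to either gene.

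*RHD* encodes the RhD antigen, a protein of the Rh family related to ammonium transporters that sits beside band 3 in the membrane. Its expression value was 16.5 in DMSO-treated cells and 207 in TRIAC-treated cells, 12.6 times higher (log2 ratio 3.65). The ratio was 0.909 times that of *SLC4A1*, so *RHD* and *SLC4A1* lay close together on this scale. Per kb of listed length *RHD* went from 5.83 to 73.2, which was 1.90 times the level of *SLC4A1* in control cells and 1.73 times with TRIAC. *RHD* (chromosome 1, 25272393 to 25330445, plus strand) has 10 exons in its canonical transcript and encodes 417 residues. The gene nearest to it in log2 ratio was *LINC00891*, a non-coding RNA, which went from 9.71 to 119 (log2 ratio 3.61); *LOC100132741* is listed with the same 2 values.

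How far the value of *RHD* can be kept apart from its paralog *RHCE*, which carries the C and E antigens and has no row in the table, was examined in the reference sequences. The coding sequences of both canonical transcripts have 1254 bases and differ at 44 of them, and 36 of 417 residues differ. The longest run without a difference is 115 bases. Of the 2765 windows of 50 bases in the *RHD* transcript, 391 (14.1%) also lie in a transcript of *RHCE*, and 16.3% lie in a transcript of any other gene. The 60 coding bases within 1 exon with the most differences lie in exon 7 of both genes, at chr1:25306596-25306655 (plus strand) for *RHD* and chr1:25385785-25385844 (minus strand) for *RHCE*. They are shown because, within the coding sequence, only reads that cover such bases separate the paralogs. Coding bases are 40 to 1293 of the 2814 bases of the *RHD* transcript, and the rest was compared only in the windows of 50 bases. Capitals mark the 8 bases that differ.
RHD: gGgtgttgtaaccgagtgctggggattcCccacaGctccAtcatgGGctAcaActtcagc
RHCE: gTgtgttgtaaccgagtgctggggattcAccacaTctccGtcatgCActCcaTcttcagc

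The stretches before the starts of *RHD* and *RHCE* are closer still. The window of *RHCE* at chr1:25420826-25421075 (minus strand) differs from the *RHD* window printed above at 2 of 250 bases, G146C and A158G, where the base of *RHD* comes first, then the position counted from 1 at the 5′ end, then the base of *RHCE*. Both windows hold AGATAA from 76 to 71 bases before the start of the canonical transcript. The annotated span of *RHD* begins at 25272393, inside its window. In *RHD* this match thus lies within the annotated span of the gene. Annotated genes on the other strand, *RSRP1* and the pseudogene *SDHDP6*, overlap the span of *RHD*, but no 50-base window of the *RHD* transcript lies in a transcript of either. The value of *RHCE* was not analysed here, so whether reads of it entered the value of *RHD* was not tested.

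*AQP1* encodes the water channel of the red cell, which carries the Colton antigens. Its expression value was 26.5 in DMSO-treated cells and 158 in TRIAC-treated cells, 5.95 times higher (log2 ratio 2.57). In control cells *AQP1* had the second highest value of the 6 genes, and per kb of listed length it exceeded *RHD* (9.43 against 5.83). With TRIAC this order was turned, with 56.1 per kb for *AQP1* and 73.2 per kb for *RHD*. *AQP1* (chromosome 7, 30911853 to 30925517, plus strand) has 4 exons and encodes 269 residues. A gene annotated on the same strand, ENSG00000250424, overlaps it and holds 31.8% of the 50-base windows of the *AQP1* transcript, the highest share among the 6 genes.

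*SMIM1* encodes a small protein with a single pass through the membrane that carries the Vel antigen. It is the shortest of the 6 genes, with a listed length of 549 bases and 78 encoded residues (chromosome 1, 3772749 to 3775982, plus strand). Its expression value was 15.0 in DMSO-treated cells and 112 in TRIAC-treated cells, 7.45 times higher (log2 ratio 2.90). As listed, *SMIM1* had about the same value with TRIAC as *EPB42*, 112 against 107. Per kb it went from 27.3 to 204 and was second of the 6 genes in both groups. None of its 457 windows of 50 bases lies in a transcript of another gene. A short transcript yields fewer reads per kb where fragments are long, which the division by listed length does not correct.

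*DMTN* encodes dematin, which bundles actin filaments and binds spectrin at the junctions of the skeleton. It was the most expressed of the 6 genes in both groups and had the smallest ratio of them. Its expression value was 190 in DMSO-treated cells and 781 in TRIAC-treated cells, 4.10 times higher (log2 ratio 2.04), just above the limit of 4 times. On the values as listed *DMTN* gained the most, 591 in the authors' unit. The gain was 195 for *SLC4A1*, 191 for *RHD*, 131 for *AQP1*, 97.8 for *EPB42* and 96.8 for *SMIM1*. Below *DMTN* this order depends on length. Per kb the gain was 223 for *DMTN*, 176 for *SMIM1*, 67.4 for *RHD*, 46.7 for *AQP1*, 39.5 for *EPB42* and 39.3 for *SLC4A1*. Per kb it went from 72.0 to 295. *DMTN* (chromosome 8, 22048995 to 22082527, plus strand) has 23 annotated transcripts, and the canonical one encodes 405 residues. None of its windows lies in a transcript of another gene.

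**Figure D3:**
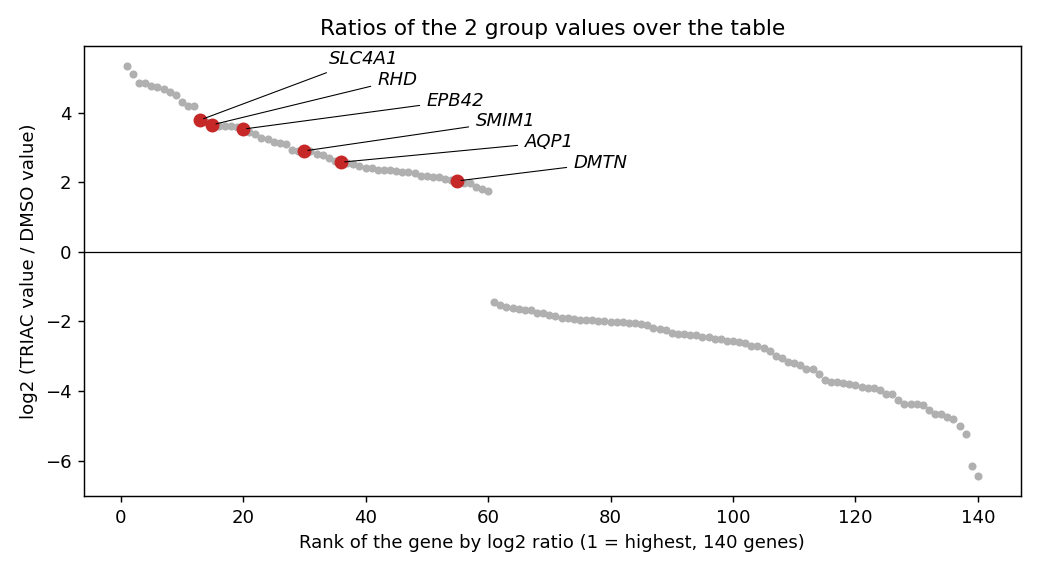
Log2 ratio of the TRIAC value to the DMSO value (vertical axis) of the 140 genes with a value above 0 in both groups, ranked from the highest (horizontal axis), with the 6 red cell membrane and blood group genes in red. The 6 genes lie between rank 13 (*SLC4A1*) and rank 55 (*DMTN*), and 4 of them lie above the median log2 ratio of 2.89 of the 60 higher genes.

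Among themselves, the 6 genes differed less in level after TRIAC than in control cells. Per kb of listed length the highest gene, *DMTN*, was 23.5 times the lowest, *SLC4A1*, in control cells and 6.97 times with TRIAC. The order from the highest was *DMTN*, *SMIM1*, *AQP1*, *RHD*, *EPB42* and *SLC4A1* in control cells. With TRIAC it was the same but for *RHD*, which came before *AQP1*. This order depends on the division by length, since on the values as listed *SMIM1* ranked 5 in both groups and *SLC4A1* ranked 4 in control cells and 2 with TRIAC. With 1 value per group it cannot be said which neighbours in this order differ beyond the spread between libraries. *DMTN* made up 59.3% of the summed level per kb of the 6 genes in control cells and 41.4% with TRIAC. *SLC4A1*, *EPB42* and *RHD* encode proteins of the band 3 and Rh complex. Their shares of this summed RNA level were 2.53%, 3.10% and 4.80% in control cells and 5.93%, 6.06% and 10.3% with TRIAC. *SMIM1* went from 22.5% to 28.5%, and *AQP1* from 7.77% to 7.86%. On the values as listed the shares with TRIAC were 7.10% for *SMIM1* and 13.3% for *SLC4A1*, and in control cells 5.50% and 5.57%. The summed value of the 6 genes as listed was 5.77 times higher with TRIAC, and 9.62 times higher without *DMTN*.

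On the values as listed with DMSO, 5 of the 6 genes lay below the median of the 60 higher genes, 45.8. *DMTN*, at 190, lay above it. These values and the medians that follow are not divided by length, so differences in gene length enter them. The median of the 6 genes was 15.8 with DMSO and 182 with TRIAC, and that of the 60 higher genes was 350 with TRIAC. Per kb, *SLC4A1* ranked 135 and *EPB42* 133 from the highest of 143 genes in control cells, and 88 and 87 with TRIAC. *RHD* moved from rank 128 to 70, *AQP1* from 119 to 78, *SMIM1* from 97 to 43 and *DMTN* from 72 to 29. No error can be given for these ratios.

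Of 63 listed red cell membrane and blood group genes, 7 have a row. These are the 6 genes above, taken from the higher side of the table, and 1 further gene, *SEMA7A*, which also had a higher value with TRIAC, as did 61 of all 143 genes. The list was drawn up with earlier results of these data known, and nothing is read from its direction. The other 56, among them the genes of erythroid spectrin, ankyrin, the glycophorins and the Rh-associated glycoprotein, were not analysed here. *SEMA7A* encodes a membrane-anchored semaphorin that carries the John Milton Hagen antigen. It went from 39.7 to 255 in expression value, 6.41 times higher (log2 ratio 2.68), which lies between the ratios of *AQP1* and *SMIM1*. Per kb *SEMA7A* went from 11.8 to 75.4, a level close to that of *RHD* with TRIAC.

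The erythroid label of the cells was set against marker genes. The marker lists were drawn up with earlier results of these data known, and nothing is read from their directions. Of 17 erythroid markers, 10 have a row, and all 10 had a higher value with TRIAC, with log2 ratios from 1.96 for *HBA1* to 5.09 for *HBZ*. Of all 143 genes, 61 were higher and 82 lower. The summed value of the 10 markers was 38582 in control cells and 181546 with TRIAC, so globin RNA was present in both groups. *HBG2* alone had 25809 and 114251 of these sums. Of 8 megakaryocyte markers, *TUBB1* has a row and was higher, with 34.2 and 927. Of 10 myeloid markers, *CD68*, *SPI1* and *FCGR2A* have a row, and their summed value was 1986 in control cells and 379 with TRIAC. Of 6 lymphoid markers, *CD3D* has a row, with 120 and 17.6. No marker with a row was at 0 in either group, and the part of these genes in the values of the 6 membrane genes was not tested.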

How the data were processed

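RNA-seq libraries of K562 cells were prepared from total RNA with an Illumina TruSeq RNA kit. According to the submitters' processing notes, GRCh38, RSEM, Bowtie2, edgeR, Trimmomatic, FastQC and CASAVA 1.8 were used, whereas their design text names TopHat, Cufflinks and BWA; no source used here says which made the values. The deposited table holds 143 genes with 1 expression signal per group, the listed length, fold changes and p-values. The fold changes and p-values are the authors' comparison and were not used. The unit of the signal is not given. *AHSP* (567 bases) and *C17orf99* (1090 bases) share the DMSO value 2.49, the only such value in genes of different listed length. Values were treated as not divided by length, but 1 shared value cannot settle this. Depth is unknown, and no test or interval could be computed.

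Ratios and log2 ratios of the TRIAC to the DMSO value were taken without a pseudocount. Levels between genes were compared per kb of listed length, and some also on the values as listed. The members and lists were chosen with earlier results of these data known. The genes named are the 6 members, every listed red cell gene with a row, markers with a row, and for each member the other gene with the nearest log2 ratio; genes of shared annotation terms were chosen after their values were seen. Gene identifiers of all 6 members matched RefSeq. Motifs were searched on both strands of the 250 bases before the start in RefSeq promoter windows (GRCh38.p14), and windows of 50 bases were matched to all GENCODE 44 transcripts on both strands. Alternatives were a threshold of 2 or 8 times, a pseudocount of 1, a filter at the lower quartile of mean value, the genes without *RHD*, values not divided by length and, added after the data were seen, the genes without *DMTN*. Python 3.11.15, pandas 2.3.3, numpy 2.4.6, matplotlib 3.10.9 and Biopython 1.88 served for this. The ratios, the count of genes past the threshold and the search for AGATAA had been tested on simulated data. No such test is reported for the other calculations.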

Additional observations from a re-analysis of the deposited data

How the results depend on the processing

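With a threshold of 8 times, 3 of the 6 genes were counted, as the stricter limit itself makes the count smaller. The count was 6 at 2 times and with a pseudocount of 1, 5 without *RHD*, and 4 among genes above the lower quartile of mean value (81.7), which 4 of the 6 passed. The median log2 ratio of 3.21 ranged from 2.90 (without *RHD*) to 3.52 (without *DMTN*), and a pseudocount of 1 lowered no log2 ratio of a single gene by more than 0.134. Levels depended on the division by length. Without it, the share of *SLC4A1* was 5.57% in control cells and 13.3% with TRIAC, and that of *SMIM1* 5.50% and 7.10%. The order from the highest then became 1 for *DMTN*, 2 for *AQP1*, 3 for *RHD*, 4 for *SLC4A1*, 5 for *SMIM1* and 6 for *EPB42* in control cells, and with TRIAC *SLC4A1* was 2, *SMIM1* 5 and *EPB42* 6. No paired analysis was possible because the table holds 1 value per group, and for the same reason no library could be left out. The ratios of the 6 genes do not depend on the listed length.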

Other observations

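The table's own annotation was searched for terms that at least 2 of the 6 genes share. Several of them restate the functions by which the genes were chosen, and most broad terms were given to genes of both directions. Extracellular exosome, with *SLC4A1*, *AQP1* and *SMIM1*, was given to 16 higher and 28 lower genes, and integral component of membrane, with *SMIM1* and *AQP1*, to 9 higher and 15 lower genes. Integral component of plasma membrane, with *RHD*, *SLC4A1* and *AQP1*, was given to 9 higher and 7 lower genes, and protein binding, with *EPB42* and *AQP1*, to 11 higher and 12 lower genes. Response of cells to cAMP, with *AQP1* and *DMTN*, was also given to *ASS1*, which was lower. Cortical cytoskeleton was given to 3 genes of the table, and all 3, *SLC4A1*, *EPB42* and *DMTN*, belong to the 6. Ammonium transmembrane transport, like the activity of the same name, was given to 2 genes, *RHD* and *AQP1*. Bicarbonate transport was given to 5 genes, all with a higher value with TRIAC, namely *SLC4A1*, *AQP1*, *HBB*, *HBA1* and *HBA2*. Actin binding was given to 5 genes that went both ways. *SLC4A1*, *DMTN* and *S100A4*, a calcium-binding protein, had a higher value, while *SPTAN1*, the non-erythroid α-spectrin, went from 561 to 110 (log2 ratio -2.35) and *GMFG*, an actin regulator, from 255 to 42.7 (log2 ratio -2.58). Regulation of cell shape was given to 5 genes, of which *EPB42* and *DMTN* were higher and *VEGFA*, *FMNL1* and *CORO1A* lower.

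Outside the 6 genes, those nearest in log2 ratio over the 2 group values were *TNS1*, which encodes tensin, for *SLC4A1* (3.72 against 3.79), *REEP1* for *EPB42* (3.58 against 3.52), *ISPD-AS1* for *AQP1* (2.56 against 2.57), *ID2*, an inhibitor of DNA binding, for *SMIM1* (2.91 against 2.90) and *LBH* for *DMTN* (2.06 against 2.04).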
